A study of Mus musculus with 15 samples.

Results

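The mRNAs of the actin cytoskeleton described here come from 6 genes: the cytoplasmic actins Actb and Actg1, the actin monomer-binding proteins Pfn1 (profilin 1), Tmsb4x (thymosin β4) and Tmsb10 (thymosin β10), and the filament-severing protein Cfl1 (cofilin 1). These 6 genes were chosen by name from 21060 protein-coding genes with an annotated 3′UTR. Every listed crosslink site on their sense strand was taken. The lists hold only sites that passed the authors' false-discovery filter (below 0.05), so crosslinks at other sites are not seen. The sites were measured by individual-nucleotide resolution crosslinking and immunoprecipitation (iCLIP), which maps the nucleotide at which a protein was linked to RNA by UV light and counts unique cDNAs at that nucleotide. The protein was GFP-tagged tristetraprolin (TTP) or GFP-TTP-AA, a mutant with alanine in place of the serines that the kinase MK2 phosphorylates. Lists existed for 6 groups that pooled 2 (TTP 0 h), 2 (TTP-AA 0 h), 4 (TTP 1 h), 3 (TTP-AA 1 h), 2 (TTP 4 h) and 2 (TTP-AA 4 h) libraries.

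All groups were C57BL/6 bone marrow-derived macrophages deficient in TTP and immortalized with hcmyc and hRasG12V, carrying a tet-inducible vector for the tagged protein. All received doxycycline for 6 h. The 0 h groups received no lipopolysaccharide (LPS), a bacterial activator of macrophages, and the other groups received LPS for 1 h or 4 h. The tagged protein was thus expressed from the vector and not from the endogenous gene, and it was precipitated by its GFP tag. Each list is a sum over its libraries and gives no spread between replicates, so every interval and p-value below covers counting error only. The headers of both 1 h lists carried a mark (regionAsOne) that the headers of the 0 h and 4 h lists lacked, so effects of LPS time and of peak calling cannot be told apart. Of 5 macrophage marker mRNAs (Csf1r, Cd68, Itgam, Adgre1 and Lyz2), all 5 held 3′UTR cDNAs in the TTP-AA 1 h list (3 to 143) and 3 in the TTP 1 h list. In the 0 h and 4 h lists, these markers were at 0 except for 8 cDNAs of Lyz2 in the TTP 0 h list. The lists held between 906 (TTP 4 h) and 93510 (TTP-AA 1 h) 3′UTR cDNAs. The amount of each mRNA was not measured in these lists, so more mRNA and more crosslinking per mRNA cannot be told apart.

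TTP is known as a zinc finger protein that binds AU-rich elements, typically built around AUUUA, in the 3′UTRs of cytokine mRNAs and promotes their decay. Phosphorylation by MK2 after LPS restrains this activity. Actin assembles into filaments that shape the cell and drive its movement and phagocytosis. Profilin delivers monomers to growing filaments, the β-thymosins hold monomers in reserve, and cofilin severs old filaments, so together these abundant proteins set the pool of monomeric actin in a macrophage. UV light links uridine more readily than the other bases, which favors U-rich sites in any iCLIP list.

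The sequences below show where the members were crosslinked. Each is a 30 nt stretch of the spliced mRNA from GENCODE M21, 5′ to 3′, and the capital is the crosslinked nucleotide. They are the sites with most cDNAs in the TTP-AA 1 h list, 3 for Actb, 2 for Tmsb4x and 1 for Cfl1, chosen more than 30 nt apart. For Actb, the site with most cDNAs in the TTP 4 h list (nt 188) is added, and for Pfn1 the site with most cDNAs without LPS is shown. A site of Tnf, a classical AU-rich target, is given for contrast.
Actb, nt 521 of the 3′UTR: uuuuguuuuuaauuUcugaauggcccaggu
Actb, nt 457: cauugcuucuguguAaauuauguacugcaa
Actb, nt 148, end of the U tract: uuuuuuuuuuuuuuUaaguuuuuuuguuuu
Actb, nt 188: uuuugacucaggauUuaaaaacuggaacgg
Pfn1, nt 233, U tract: uguuuuuuggucuuUuuuuuuuuuuuuuuu
Tmsb4x, nt 356: guucaaacaauuuuAauuauuggaaugcac
Tmsb4x, nt 57: uugccuucuuauuuUacuucuuuuagcugu
Cfl1, nt 290: gggagccuguauuuUuuuuuuuaacgacac
Tnf, nt 482: uugcuuaugaauguAuuuauuuggaaggcc

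On mm10, these windows lie at chr5:142903262-142903291, chr5:142903326-142903355, chr5:142903635-142903664 and chr5:142903595-142903624 for Actb, all on the minus strand. That of Pfn1 lies at chr11:70651876-70651905, and those of Tmsb4x at chrX:167207130-167207159 and chrX:167207429-167207458, on the minus strand. The Cfl1 window lies at chr19:5493769-5493798 on the plus strand, and that of Tnf at chr17:35199648-35199677 on the minus strand. The Tnf window holds AUUUA, whereas those of Pfn1 at nt 233 and Cfl1 at nt 290 hold an uninterrupted run of U. In the TTP-AA 1 h list, the crosslinked base of these windows held 29, 16 and 15 cDNAs for the first 3 of Actb, 15 for Pfn1, 26 and 10 for Tmsb4x, 10 for Cfl1 and 47 for Tnf. The Actb base at nt 188 held 10 cDNAs in the TTP 4 h list. Among the windows of the members, that around nt 188 of Actb is the only one with AUUUA.

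The longest annotated 3′UTRs of the members on mm10 are, on the minus strand, chr5:142903115-142903797 for Actb (ENSMUSG00000029580.14), chr11:120345690-120346389 for Actg1 (ENSMUSG00000062825.15) and chr11:70651850-70652123 for Pfn1 (ENSMUSG00000018293.4). Those of Tmsb4x (ENSMUSG00000049775.16) and Tmsb10 (ENSMUSG00000079523.8), also on the minus strand, are chrX:167207093-167207500 and chr6:72957347-72957617. That of Cfl1 (ENSMUSG00000056201.8) is chr19:5493494-5495201 on the plus strand.

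Almost all cDNAs of these mRNAs at sites that passed the filter lay in 3′UTRs. In the 0 h lists, 125 of 125 cDNAs (TTP) and 360 of 360 cDNAs (TTP-AA) in the members were in 3′UTRs, as were 63 of 63 (TTP) and 35 of 35 (TTP-AA) at 4 h. At 1 h, the share was 87.6% for TTP (444 of 507 cDNAs, Wilson 95% interval 84.4% to 90.2%) and 96.6% for TTP-AA (2055 of 2127, 95.8% to 97.3%). The remaining cDNAs were in coding sequence (CDS) and 5′UTRs, and introns held 0. In the Actb CDS, TTP had 45 cDNAs and TTP-AA had 41 at 1 h, beside 311 and 1116 in the 3′UTR. Per 100 nt, the TTP 1 h list held 3.99 cDNAs in the Actb CDS and 45.5 in the 3′UTR. The TTP-AA 1 h list held 3.63 and 163. The Pfn1 CDS held 0 cDNAs for TTP and 20 for TTP-AA, and the Tmsb4x CDS held 4 and 9. By counting error alone, that 0 allows up to 0.00302% of the list. It does not cover cDNAs at sites that failed the filter. In the 0 h and 4 h lists, CDS and 5′UTRs of all members held 0 cDNAs, and antisense sites were at 0 in every list.

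The members differed widely among themselves. Actb, which encodes β-actin, held 42 (TTP 0 h), 140 (TTP-AA 0 h), 311 (TTP 1 h), 1116 (TTP-AA 1 h), 52 (TTP 4 h) and 18 (TTP-AA 4 h) 3′UTR cDNAs. It ranked between 2 and 12 among all genes with a 3′UTR site in the 6 lists. Pfn1 held 74, 139, 70, 413, 11 and 5 cDNAs in the same order, and in the TTP 0 h list it was second of 762 genes, with rank 2. Tmsb4x held 7, 58, 27, 392, 0 and 12, and Cfl1 held 2, 20, 31, 134, 0 and 0. For TTP-AA the lists at 1 h were the highest for these 4 genes, and for TTP this held for 3 of them, since Pfn1 had 74 cDNAs at 0 h and 70 at 1 h. Together the 6 members made up 2.86% of all 3′UTR cDNAs in the TTP 0 h list, 5.99% for TTP-AA 0 h, 4.65% for TTP 1 h and 2.20% for TTP-AA 1 h. The 4 h lists gave 6.95% (TTP) and 3.50% (TTP-AA), from 63 and 35 cDNAs.

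Per 100 nt of 3′UTR in the TTP-AA 1 h list, Actb held 163 cDNAs, Pfn1 held 151, Tmsb4x held 96.1 and Cfl1 held 7.85. The Cfl1 value uses its longest annotated 3′UTR of 1708 nt, although all of its cDNAs in that list lay between nt 71 and nt 443. Of these 134 cDNAs, 17 lay upstream of nt 188, where the 3′UTR of the Cfl1 transcript with a 349 nt 3′UTR begins. In that transcript these 17 lie in coding sequence, and they count as 3′UTR here because 3′UTRs were assigned first. Sites of the members were also deeper than usual: in the TTP-AA 1 h list they carried 3.91 cDNAs on average, beside 1.53 for all 3′UTR sites.

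**Figure D1:**
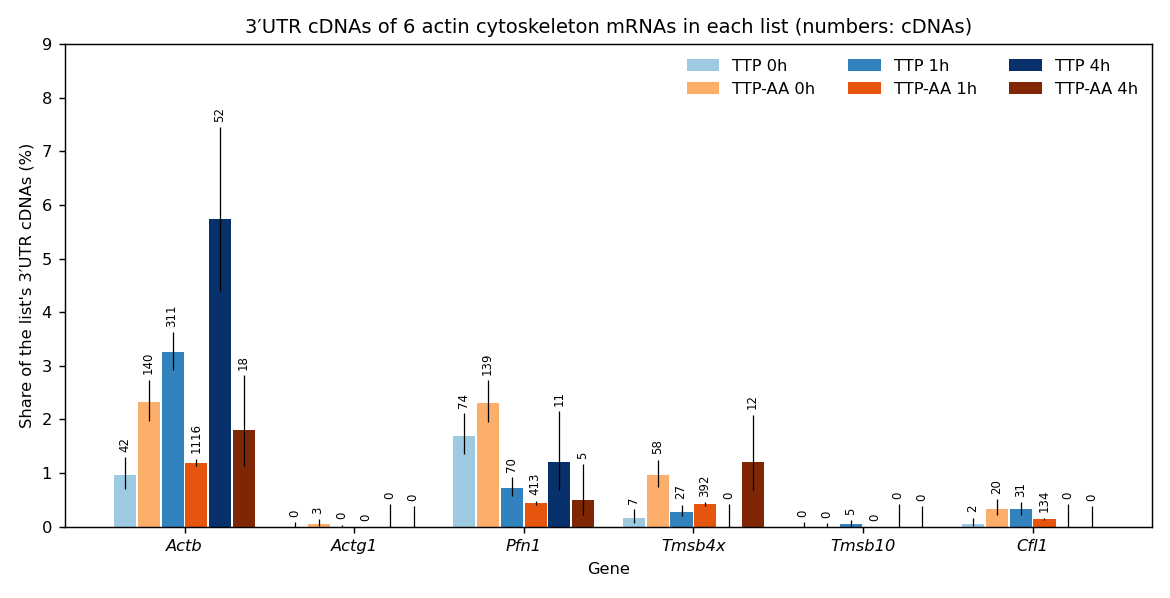
Share of each list's 3′UTR cDNAs (%, vertical axis) that lay in each of the 6 genes, with 1 bar per list, Wilson 95% intervals and the cDNA number above each bar. Actb had its largest share in the TTP 4 h list (5.74%), and Actg1 and Tmsb10 stayed at or near 0.

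The other cytoplasmic actin, Actg1, encodes γ-actin, whose protein is nearly identical to β-actin. Its 3′UTR held 3 cDNAs, all in the TTP-AA 0 h list at nt 660 to 665, and 0 in every other list. A count of 0 allows up to 0.0314% of 3′UTR cDNAs for TTP at 1 h and up to 0.00321% for TTP-AA at 1 h, where Actb had 3.25% and 1.19%. The 3′UTRs of both actins are similar in length, 683 nt for Actb and 700 nt for Actg1. They differ in sequence: the longest run of U is 29 nt in Actb and 6 nt in Actg1, and UUUUU starts at 58 positions in Actb and 3 in Actg1, whereas AUUUA occurs 1 time in Actb and 2 times in Actg1. Loss of reads that map to several genes was examined by searching the 30 nt after each position in the annotated transcripts of other genes. Of 671 positions of the Actg1 3′UTR, 0 had such a match with up to 2 mismatches. Sequence outside annotated transcripts was not searched, so loss of Actg1 reads shared with such sequence was not examined.

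Tmsb10 differed from Tmsb4x in the same way. It held 5 cDNAs in the TTP 1 h list, at nt 42 to 53, and 0 in the other lists, although both genes encode β-thymosins. Its 3′UTR of 271 nt had no UUUUU and no AUUUA, and its longest run of U was 3 nt. Here, however, 98.3% of 242 positions matched another gene with up to 2 mismatches, in each case Gm9844 on chromosome 7, and 82.6% matched exactly. Gm9844 itself held 0 cDNAs in all lists. Weak crosslinking to Tmsb10 and loss of shared reads therefore cannot be told apart.

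Actb also shared sequence with other genes. Of 654 positions in its 3′UTR, 64.5% had a match with up to 2 mismatches and 29.1% an exact match, and Lrrc58 on chromosome 16 shared most positions (324). Positions with a match within 2 mismatches held 201 of 311 cDNAs for TTP and 614 of 1111 for TTP-AA at 1 h, and exact matches held 24 and 45. Lrrc58 held 15 and 80 cDNAs in these lists, of which 0 lay in the matching stretches. For Pfn1, 10.6% of positions matched elsewhere, and they held 32 of 70 (TTP) and 43 of 127 (TTP-AA) cDNAs that could be assessed at 0 h. For Cfl1 it was 21.6%, mostly shared with Snx32 on the same chromosome, and these positions held both TTP cDNAs at 0 h and 0 cDNAs in the other lists. For Tmsb4x it was 1.32%.

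The proteins were compared at 1 h to ask whether the MK2 sites affected crosslinking to these mRNAs. TTP-AA gave more 3′UTR cDNAs than TTP in all 4 members with at least 10 cDNAs. The ratio was 3.59 for Actb (95% interval 3.16 to 4.08), 5.90 for Pfn1 (4.57 to 7.71), 14.5 for Tmsb4x (9.83 to 22.3) and 4.32 for Cfl1 (2.91 to 6.61). Over all genes, however, the number of 3′UTR cDNAs was 9.78 times larger in the TTP-AA list. Thus, as a share of all 3′UTR cDNAs, Actb was lower for TTP-AA (1.19%) than for TTP (3.25%), as were Pfn1 (0.442% and 0.732%) and Cfl1 (0.143% and 0.324%). Tmsb4x had 0.419% for TTP-AA and 0.282% for TTP.

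By a two-sided Fisher exact test with Benjamini-Hochberg adjustment over 2102 genes, 3 of 4 tested members differed in share, and the share called among all tested genes was 6.23%. These 4 members ranked 4 to 78 among 4510 genes by 3′UTR cDNAs in the TTP-AA 1 h list, and higher counts give a test more power. Neither this share over all genes nor those below are matched for depth. The odds ratio, TTP-AA over TTP, was 0.359 for Actb (exact adjusted p = 1.28e-43), 0.598 for Pfn1 (exact adjusted p = 0.00631) and 0.436 for Cfl1 (exact adjusted p = 0.00454). Tmsb4x had an odds ratio of 1.46 (exact adjusted p = 0.257), with a ratio of shares between 1.00 and 2.28. These calls turn with the denominator: relative to all cDNAs of a list, the odds ratios were 2.05 for Actb, 3.34 for Pfn1, 8.14 for Tmsb4x and 2.43 for Cfl1, and all 4 were called higher in TTP-AA. Over all tested genes, 41 had a higher 3′UTR share in TTP-AA and 90 in TTP, beside 1783 and 9 relative to all cDNAs. With sites of at least 2 cDNAs, Tmsb4x was called (odds ratio 6.61, exact adjusted p = 1.03e-06) and Cfl1 was not (0.549, exact adjusted p = 0.315).

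Among the 2102 tested genes, the log2 ratio of cDNAs (TTP-AA over TTP, 0.5 added) had a median of 4.52. Actb was at 1.84, Cfl1 at 2.09, Pfn1 at 2.55 and Tmsb4x at 3.84. The share of genes with a lower ratio was 10.9%, 14.3%, 21.2% and 38.9% in this order, so all 4 lay in the lower part of the distribution. Many of these genes had 0 cDNAs in the TTP list, which raises the median.

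**Figure D2:**
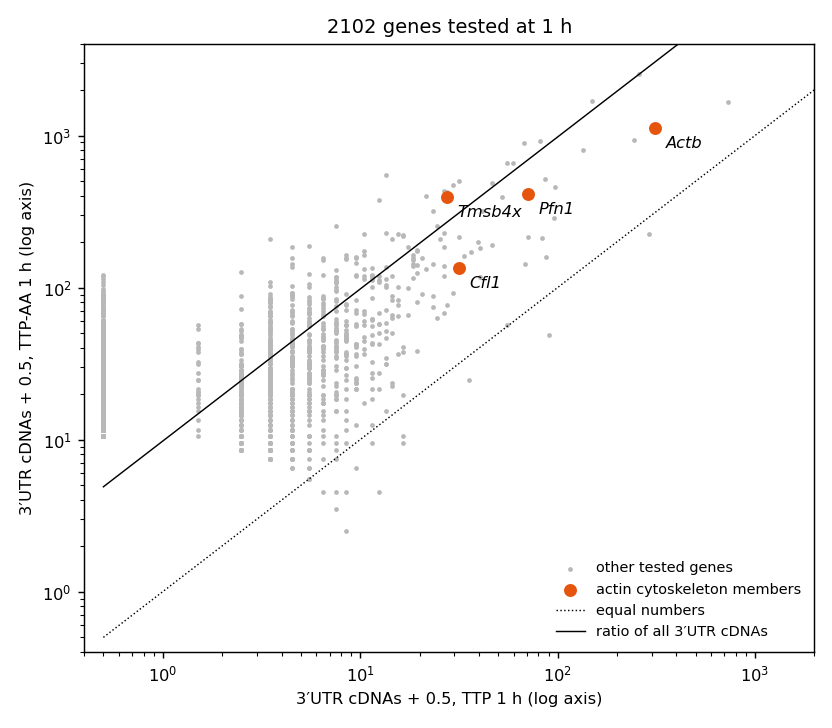
3′UTR cDNAs plus 0.5 per gene in the TTP 1 h list (horizontal, log axis) and in the TTP-AA 1 h list (vertical, log axis) for 2102 genes, with the 4 tested members in orange. Actb, Pfn1 and Cfl1 lie between the line of equal numbers and the line of the total 3′UTR ratio (9.78), and Tmsb4x lies just above the latter.

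Without LPS, the direction differed. At 0 h, 3 of 4 tested members were called, each with a higher share in TTP-AA, beside 28.2% of tested genes called in either direction. Actb had an odds ratio of 2.44 (Fisher exact test, adjusted p = 2.61e-06), Tmsb4x of 5.72 (adjusted p = 1.55e-06) and Cfl1 of 5.98 (adjusted p = 0.0108). Cfl1 rested on 20 and 2 cDNAs, a ratio of 10.0 with an interval of 2.43 to 88.2. Both TTP cDNAs matched another gene, and without such sites the odds ratio of Cfl1, then against 0 cDNAs, was 29.9 (exact adjusted p = 3.84e-04), a value set by the 0.5 added and no bound. Pfn1, with 139 and 74 cDNAs, had an odds ratio of 1.37 (exact adjusted p = 0.0995). The higher share in TTP-AA held relative to all cDNAs, with odds ratios of 3.41 for Actb, 8.04 for Tmsb4x and 8.45 for Cfl1, and Pfn1 was then called as well (1.93, exact adjusted p = 4.97e-05). With each site counted once, the calls of Actb (1.69, exact adjusted p = 0.0905) and Cfl1 (4.19, exact adjusted p = 0.106) were lost.

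At 4 h the lists were thin, with 906 (TTP) and 1000 (TTP-AA) 3′UTR cDNAs, and 2 of 3 tested members were called beside 68.0% of the 25 tested genes, so the members stood near the background. Actb had 52 cDNAs for TTP and 18 for TTP-AA, an odds ratio of 0.306 (Fisher exact test, adjusted p = 2.18e-05). Tmsb4x had 0 and 12 (exact adjusted p = 0.00114). With the 0 set at its limit of 3 cDNAs, the ratio of TTP-AA over TTP was 4.00, which leaves out the counting error of the 12. The interval of this ratio that covers the counting error of both numbers starts at 2.78. With each site counted once, and with sites of at least 2 cDNAs, Tmsb4x fell below the minimum for testing. Pfn1 had 11 and 5 (odds ratio 0.430, exact adjusted p = 0.154), and Cfl1 had 0 in both lists. At 4 h, Actb and Pfn1 thus had more cDNAs for TTP, and Tmsb4x had more for TTP-AA.

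Time courses were compared within each protein. For TTP, 3 of 4 tested members changed in share from 0 h to 1 h, beside 47.3% of tested genes. The share of Actb rose from 0.961% to 3.25% (odds ratio 3.43, Fisher exact test, adjusted p = 3.13e-16) and that of Cfl1 from 0.0458% to 0.324% (5.78, adjusted p = 0.00432). In contrast, the share of Pfn1 fell from 1.69% to 0.732% (0.428, exact adjusted p = 1.07e-05), while its number of cDNAs was 74 and 70. Without sites that matched another gene, Cfl1 had 0 cDNAs at 0 h and an odds ratio of 28.9, likewise set by the 0.5 added. The Pfn1 call was lost with each site counted once (0.737, exact adjusted p = 0.468) and without sites that matched another gene (0.713, exact adjusted p = 0.153). Tmsb4x went from 7 to 27 cDNAs (1.68, exact adjusted p = 0.296).

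For TTP-AA, all 4 tested members had a lower share at 1 h than at 0 h, beside 13.6% of tested genes called in either direction. The odds ratios were 0.505 for Actb, 0.187 for Pfn1, 0.429 for Tmsb4x and 0.421 for Cfl1 (Fisher exact test, adjusted p = 3.21e-10, 3.32e-45, 3.75e-06 and 0.0127). Their cDNA numbers were 7.97, 2.97, 6.76 and 6.70 times higher at 1 h, while all 3′UTR cDNAs were 15.6 times higher. Relative to all cDNAs of the lists, Pfn1 remained lower at 1 h (odds ratio 0.553, exact adjusted p = 3.60e-07), whereas Actb was higher (1.49, exact adjusted p = 6.10e-05), and Tmsb4x (1.26) and Cfl1 (1.23) were not called. With sites of at least 2 cDNAs, the Cfl1 call was lost (0.393, exact adjusted p = 0.0615). The fall of Pfn1 in the TTP-AA lists did not turn with either denominator.

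From 1 h to 4 h, 1 of 4 tested members was called for TTP beside 20% of tested genes: the share of Actb rose to 5.74% (odds ratio 1.82, Fisher exact test, adjusted p = 0.00245). Relative to all cDNAs it fell (0.575, exact adjusted p = 7.83e-04). The call was lost with each site counted once (1.91, exact adjusted p = 0.0568) and with sites of at least 2 cDNAs (1.42, adjusted p = 0.212), and without sites that matched another gene the odds ratio was 3.18. For TTP-AA, 1 of 4 was called beside 3.09% of tested genes, Tmsb4x with 12 cDNAs at 4 h and 392 at 1 h (odds ratio 3.00, exact adjusted p = 0.0467). This call turned relative to all cDNAs (0.289, exact adjusted p = 5.55e-06). It was lost with a minimum of 5 cDNAs (exact adjusted p = 0.0577), without a minimum (0.0579) and with sites of at least 2 cDNAs (2.24, adjusted p = 1.00). For TTP-AA, Actb had 1116 and 18 cDNAs and Pfn1 had 413 and 5, and neither share was called (odds ratios 1.56 and 1.24, exact adjusted p = 1.00 for both). Without sites that matched another gene, Actb was called (3.49, exact adjusted p = 0.00122).

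The positions of the crosslinks within the 3′UTRs were then compared. In Actb, 3 stretches took most cDNAs. Of the TTP-AA 1 h cDNAs, 580 lay at nt 440 to 598, 199 at nt 271 to 312 and 172 at nt 122 to 151, and of the TTP 1 h cDNAs 109, 63 and 67. The stretch at nt 122 to 151 holds a run of 27 U and lies on the U tract shown above. It held 25 of 42 cDNAs for TTP at 0 h (59.5%, 95% interval 44.5% to 73.0%) and 42 of 140 for TTP-AA at 0 h. At 1 h it held 67 of 311 (21.5%, 17.3% to 26.4%) for TTP and 172 of 1116 (15.4%, 13.4% to 17.6%) for TTP-AA. At 4 h it held 0 of 52 and 0 of 18. The TTP 4 h cDNAs lay instead in 2 places, 31 at nt 440 to 598 and 21 at nt 171 to 204. The latter stretch contains the single AUUUA of the Actb 3′UTR, and it held 0 cDNAs in the TTP-AA 4 h list and in both 0 h lists. All 18 TTP-AA 4 h cDNAs lay at nt 440 to 598.

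**Figure D3:**
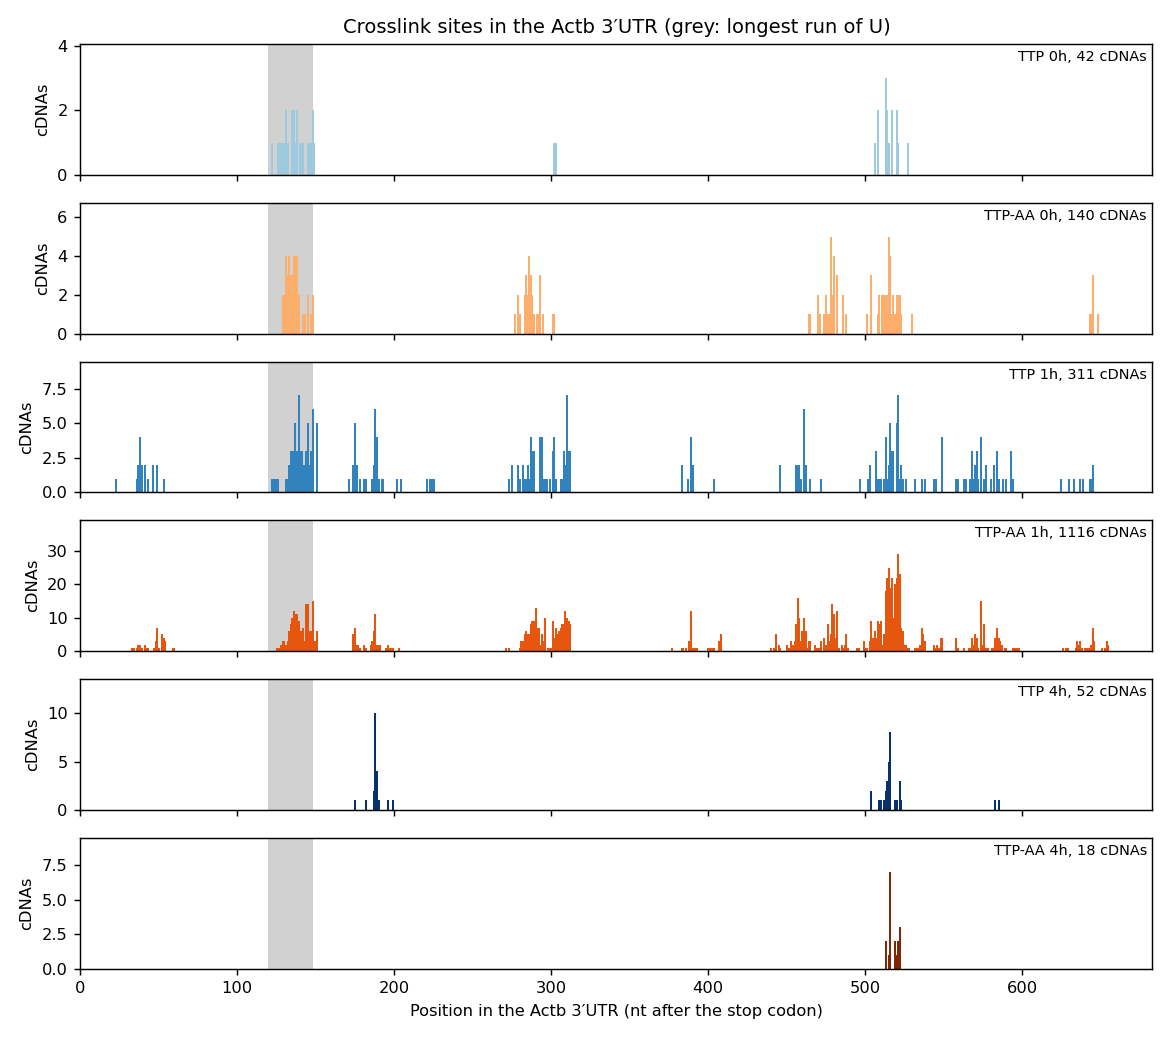
cDNAs at each nucleotide of the Actb 3′UTR (horizontal axis, nt after the stop codon) in the 6 lists, each with its own vertical scale. The grey band is the 29 nt run of U, which carries cDNAs at 0 h and 1 h and none at 4 h.

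In Pfn1, the U tract near the 3′ end took all cDNAs without LPS. All 74 (TTP) and all 139 (TTP-AA) cDNAs at 0 h and all 11 TTP cDNAs at 4 h lay at nt 218 to 249, a stretch that is 87.5% U. At 1 h, a second region at nt 31 to 120 held 35 of 70 cDNAs for TTP and 255 of 413 for TTP-AA. This region is 35.6% U. It held 0 of 74 and 0 of 139 cDNAs at 0 h, and the 5 TTP-AA cDNAs at 4 h lay in it. The U tract itself held 74 cDNAs at 0 h and 35 at 1 h for TTP, and 139 and 158 for TTP-AA.

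Tmsb4x showed a similar split. At 0 h, all 7 (TTP) and all 58 (TTP-AA) cDNAs lay at nt 263 to 390, as did all 12 TTP-AA cDNAs at 4 h. At 1 h, nt 26 to 126 held 12 of 27 cDNAs for TTP and 170 of 392 for TTP-AA. In Cfl1, all 20 TTP-AA cDNAs at 0 h lay at nt 284 to 299, a stretch with a run of 11 U. This stretch held 12 of 31 cDNAs for TTP and 62 of 134 for TTP-AA at 1 h, when sites also appeared at nt 390 to 443. The 2 TTP cDNAs at 0 h lay apart, at nt 1216 and 1217. Thus in Pfn1, Tmsb4x and Cfl1 the 1 h lists held sites over more of the 3′UTR than the 0 h lists. Since the 1 h headers carry the additional peak-calling mark and the 1 h lists pool more cDNAs, these differences were not tested.

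**Figure D4:**
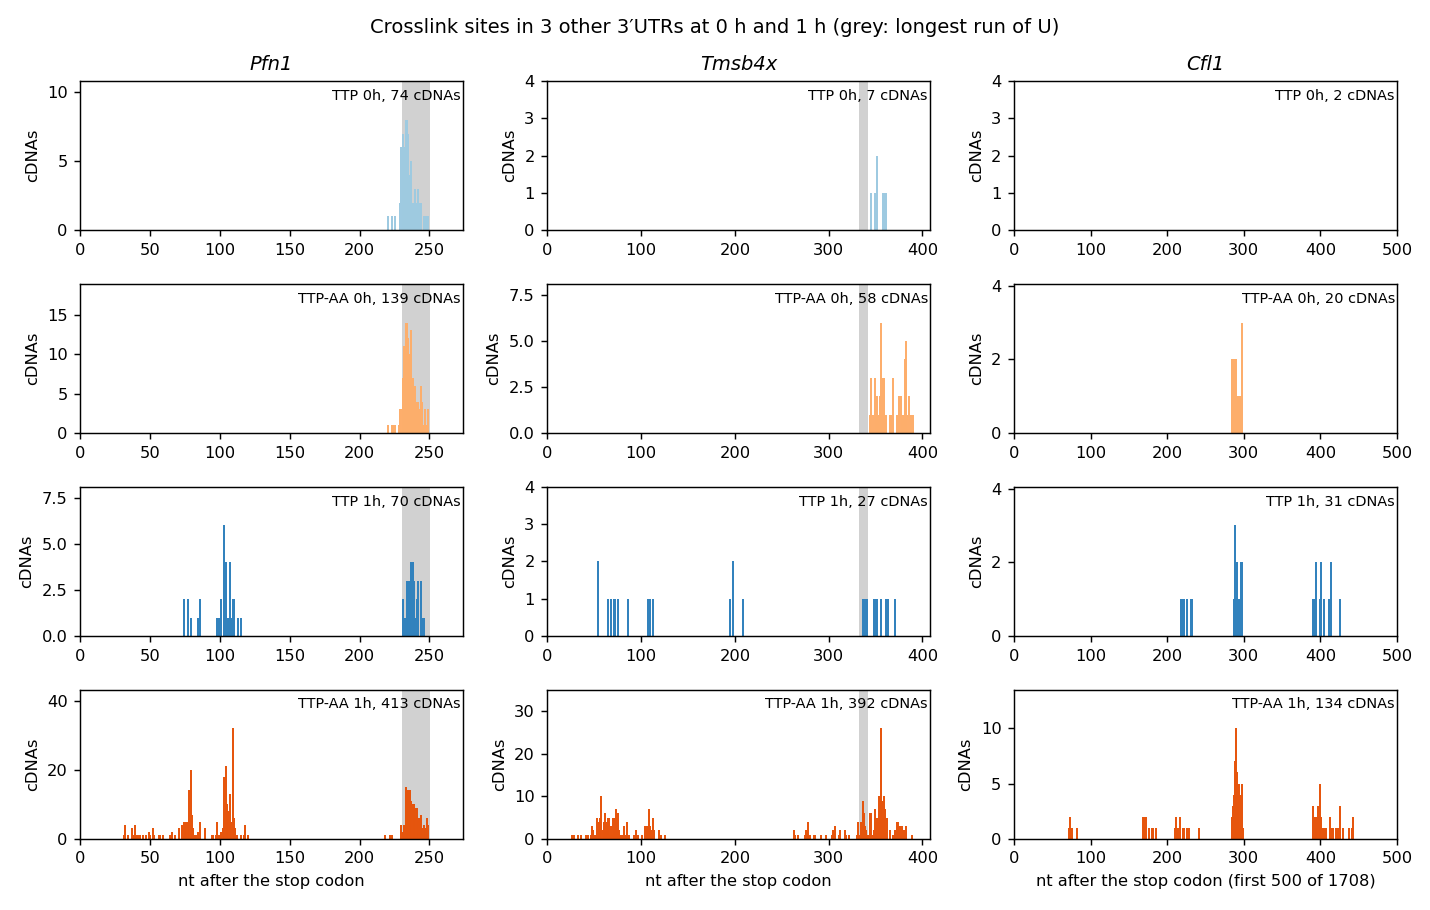
cDNAs at each nucleotide after the stop codon (horizontal axis) in the 3′UTRs of Pfn1, Tmsb4x and Cfl1 in the 0 h and 1 h lists, each panel with its own vertical scale and the longest run of U in grey. Pfn1 sites at 0 h stay within nt 218 to 249, and the 2 Cfl1 cDNAs of the TTP 0 h list lie beyond the plotted 500 nt, as does the longest U run of Cfl1.

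Sites of TTP lay close to sites of TTP-AA. At 1 h, 225 of 236 TTP sites in the members (95.3%, 95% interval 91.8% to 97.4%) had a TTP-AA site within 15 nt, and 191 (80.9%) had one at the same nucleotide. The 11 others were 4 sites in Actb, 3 in Tmsb4x and 4 in Tmsb10. Over all genes, 76.8% and 46.3% of TTP sites did so. The members' lists are dense. In the 3′UTRs of the 5 members with a TTP site, 38.7% of all nucleotides lay within 15 nt of a TTP-AA site. The long Cfl1 3′UTR (16.2%) and Tmsb10 (0%) lower this value. In Actb, which held 151 of the 236 TTP sites, it was 80.1%, in Tmsb4x 70.6% and in Pfn1 66.4%. Within 15 nt, closeness of sites in these 3 genes thus cannot be told apart from their density. At the same nucleotide, a TTP-AA site was present for 81.5% (Actb), 93.9% (Pfn1) and 80.0% (Tmsb4x) of TTP sites. Sites of TTP-AA covered 36.5%, 29.9% and 31.9% of the nucleotides of these 3′UTRs. The part of density in this was not tested. In the other direction, 468 of 526 TTP-AA sites (89.0%) had a TTP site within 15 nt, beside 21.5% over all genes. At 0 h, 59 of 61 TTP sites (96.7%) had a TTP-AA site within 15 nt, and the 2 without one were those in Cfl1. At 4 h it was 12 of 30, all in Actb.

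Runs of U were common near these crosslinks and AU-rich pentamers were rare. Motifs were searched on the transcribed strand, UUUUU with overlaps. In the TTP-AA 1 h list, UUUUU lay within 20 nt of 75.4% of the Actb cDNAs (95% interval 72.7% to 77.8%), 60.0% of the Pfn1 cDNAs, 49.2% of the Tmsb4x cDNAs and 46.3% of the Cfl1 cDNAs. The median over 1933 genes was 31.9%. The shares of 3′UTR nucleotides with UUUUU this near were 39.4% (Actb), 46.0% (Pfn1), 19.6% (Tmsb4x) and 9.95% (Cfl1). AUUUA lay within 20 nt of 4.93% of the Actb cDNAs and of 0 of 413, 0 of 392 and 0 of 134 cDNAs in the other 3 genes, beside a median of 39.8%. Of the 1933 genes, 464 (24.0%) had no cDNA near AUUUA. The 3′UTRs of Pfn1 and Tmsb4x contain no AUUUA at all, and that of Cfl1 holds 2, away from the sites. By contrast, Tnf, whose 3′UTR holds 8 AUUUA and no UUUUU, had AUUUA within 20 nt of 70.5% of its 1673 cDNAs.

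For TTP at 1 h, UUUUU lay near 68.5% (Actb), 62.9% (Pfn1), 40.7% (Tmsb4x) and 38.7% (Cfl1) of cDNAs, beside 31.6% over all genes. The intervals of Tmsb4x (24.5% to 59.3%) and Cfl1 (23.7% to 56.2%) include the value over all genes. In Tmsb10, UUUUU lay near 0 of 5 cDNAs. AUUUA lay near 9.97% of the Actb cDNAs. At 0 h, UUUUU lay near 42 of 42 (TTP) and 134 of 140 (TTP-AA) Actb cDNAs, beside 42.6% and 53.2% over all genes. At 4 h, AUUUA lay near 21 of 52 Actb cDNAs for TTP (40.4%, 28.2% to 53.9%) and 0 of 18 for TTP-AA. In annotated 3′UTRs at large, AUUUA occurs in 65.2% and UUUUU in 72.4%. Runs of U as long as those of Pfn1 (20 nt), Cfl1 (21 nt) and Actb (29 nt) occur in 1.93%, 1.63% and 0.342%. Among 3′UTRs with a site at 1 h, these values were 85.2%, 90.2%, 3.74%, 3.06% and 0.819% in the same order. The Cfl1 run, at nt 1117 to 1137, carried no listed site in any list. The crosslinked base was U for 73.1% of the Actb cDNAs, 77.2% of the Pfn1 cDNAs, 58.7% of the Tmsb4x cDNAs and 66.4% of the Cfl1 cDNAs in the TTP-AA 1 h list, beside 62.1% over all genes. UGUGU lay near 8.60% of the Actb and 17.9% of the Cfl1 cDNAs and near 0 of the Pfn1 and Tmsb4x cDNAs there.

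**Figure D5:**
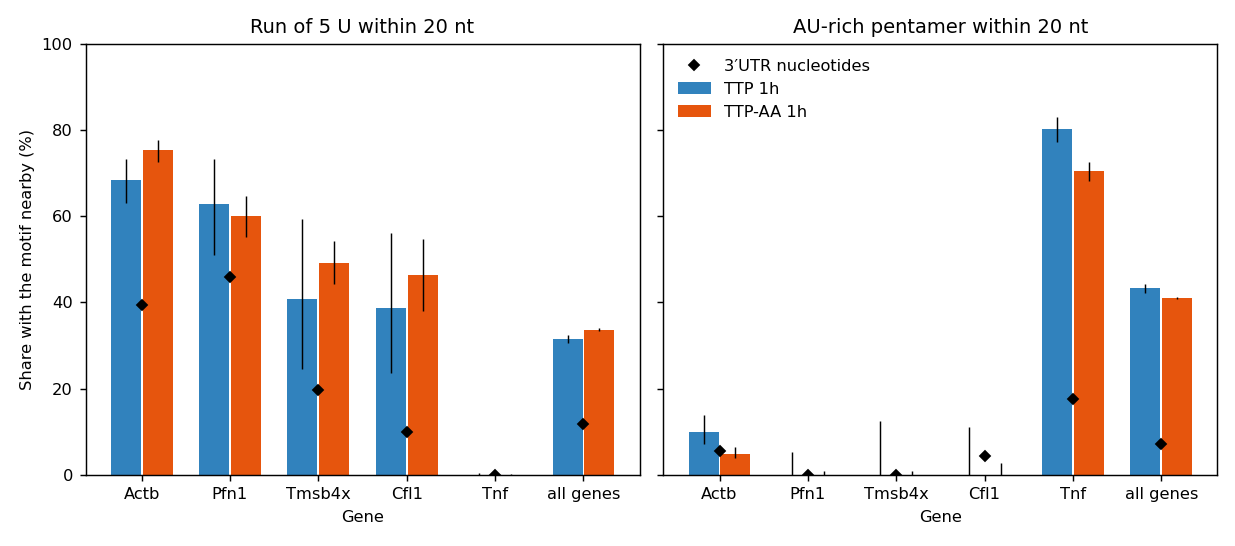
Share of 1 h cDNAs (%, bars with Wilson 95% intervals) with a run of 5 U (left) or the AU-rich pentamer (right) wholly within 20 nt, for 4 members, Tnf and all genes; diamonds give the share of 3′UTR nucleotides with the motif as near. Actb and Pfn1 have the highest bars on the left, and all 4 members have low or empty ones on the right. Tnf has high bars on the right and none on the left.

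Other genes of actin dynamics were examined through a list of 68 genes that are not members. At 1 h, 34 of these had enough cDNAs to be tested, and 1 differed in share between the proteins, beside 6.23% of all tested genes. This was Actr2, a subunit of the Arp2/3 complex that nucleates branched filaments, with 198 cDNAs for TTP-AA and 39 for TTP (odds ratio 0.513, Fisher exact test, adjusted p = 0.0114). Msn, which links actin to the membrane, held most TTP-AA cDNAs of the list (220, and 16 for TTP, odds ratio 1.37). Myl12a, a myosin light chain, held 156 and 20 (0.780), and Arpc2, another Arp2/3 subunit, held 99 and 17 (0.581), none of them called. The median log2 odds ratio was 0.57 over the 34 genes, -0.97 over the 4 members and 1.23 over all 2102 genes. Many of the 2102 genes had 0 TTP cDNAs, which raises their median, whereas the 4 members had 27 to 311. Of the 2102 genes, 41 were called higher in TTP-AA and 90 in TTP, so these medians are not a like comparison. The 7 tested Arp2/3 genes together held 562 cDNAs for TTP-AA and 72 for TTP. At 0 h, 7 genes of the list were tested and 2 were called, beside 28.2% of all tested genes. These were Actr2, with 23 cDNAs for TTP-AA and 4 for TTP (odds ratio 3.81, Fisher exact test, adjusted p = 0.0173), and Cap1, which binds actin monomers, with 10 and 0 (adjusted p = 0.0266). At 4 h, 0 genes of the list reached 10 cDNAs. From 0 h to 1 h, 5 of 10 tested genes of the list were called for TTP, beside 47.3% of all tested genes, with Actr2, Arpc2 and Msn higher and Rhoa and Wasf2 lower at 1 h. For TTP-AA, 5 of 32 were called, beside 13.6%, with Arpc2 and Msn higher and Cap1, Myl12a and Myl12b lower. The shares of called genes in this list thus lay near those over all genes. By share of 3′UTR cDNAs, Actr2 took the same directions between the proteins at 0 h and 1 h as Actb and Cfl1. The 1 h direction of Actb and Cfl1 turned relative to all cDNAs, and other denominators were not examined for Actr2 alone.

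The genes with the most similar profile over the 6 lists were sought among 481 genes with at least 50 3′UTR cDNAs, by Euclidean distance in log2 of the share of 3′UTR cDNAs. For Actb these were Ybx3 (distance 2.35), Pfn1 (3.89) and Lars2 (4.16), and for Pfn1 they were Ybx3 (2.47), Tfrc (3.73) and Rnf225 (3.81). For Tmsb4x they were B2m (2.58), Cdkn1a (2.72) and Ccl9 (3.11). The nearest genes to Cfl1 were Arhgdia (0.895), Actr2 (1.09) and Canx (1.19), which like Cfl1 had 0 cDNAs in both 4 h lists. Ybx3 was nearest to both Actb and Pfn1, with 71, 56, 134, 801, 30 and 9 cDNAs in the order of lists used above.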

How the data were processed

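For iCLIP of GFP-TTP and GFP-TTP-AA, the authors deposited 1 list of crosslink sites per group. The value deposited for a site is a score that counts its unique cDNAs, signed by strand. According to the study's methods, the authors removed PCR duplicates by random barcode bases, mapped unique reads to mm10 with Bowtie (version not given in the sources used here) and took the nucleotide before each read. Libraries of a group were summed, and sites below a false-discovery rate of 0.05 were kept (100 permutations, 15 nt neighborhood). Lists held 19167 to 174397 cDNAs, of which 10.4% to 32.0% lay in a ribosomal RNA locus on chromosome 17. By counting error, a count of 0 allows 3 cDNAs. This is no upper limit on crosslinking, since cDNAs at sites that failed the filter were not listed.

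Sites were assigned here to GENCODE M21 (GRCm38, the assembly mm10), 3′UTR before CDS, 5′UTR, non-coding exon and intron, and numbered on the longest 3′UTR. Genes with at least 10 3′UTR cDNAs over both lists were tested by two-sided Fisher exact tests against all other 3′UTR cDNAs, adjusted by Benjamini-Hochberg over all tested genes (threshold 0.05). Odds ratios add 0.5 to each count. Shares have Wilson and ratios Clopper-Pearson 95% intervals. Python 3.11.15, pandas 2.3.3 and scipy 1.17.1 were used, and the test was tested on simulated data.

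Named genes were the 6 members, Tnf, the 3 genes of the wider actin list with most 1 h cDNAs per protein, up to 3 called genes in each direction, and the 3 genes nearest in profile to each member with at least 50 cDNAs. Macrophage markers, Gm9844, Lrrc58 and the wider genes called in other comparisons were named after their values were seen. The members and lists were chosen with earlier results of these data known. The sequence of 1 Pfn1 site is not reported here.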

Additional observations from a re-analysis of the deposited data

Results flagged for a closer look

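Actb and Cfl1 were called in opposite directions under the same contrast. For TTP-AA against TTP, Actb had an odds ratio of 2.44 without LPS, 0.359 after 1 h of LPS and 0.306 after 4 h. Cfl1 had an odds ratio of 5.98 without LPS and 0.436 after 1 h. For 1 h against 0 h, the odds ratio of Actb was 3.43 in TTP and 0.505 in TTP-AA, and that of Cfl1 was 5.78 in TTP and 0.421 in TTP-AA. Both views use the same 0 h and 1 h lists and are not independent. The differences between times and between proteins were not tested, since each group is a single pooled list.

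Beside these values stand the mark in the 1 h headers and a difference between whole lists. In the 1 h lists, 3′UTRs took 9.63% (TTP) and 53.6% (TTP-AA) of cDNAs, and in the 4 others between 3.12% and 18.4%. Their part in the result was not tested. Relative to all cDNAs of a list, Actb had an odds ratio (TTP-AA over TTP) of 3.41 without LPS, 2.05 after 1 h and 0.534 after 4 h, so the first 2 values then had the same direction. For Cfl1 these odds ratios were 8.45 without LPS and 2.43 after 1 h.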

How the results depend on the processing

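No paired analysis was possible because each list sums the libraries of its group, and for the same reason no replicate could be left out. Over 27 odds ratios of members, 211 values under other settings were computed: 159 kept direction and call, 14 gained and 11 lost the call, and 27 turned direction. Of these, 22 came with a denominator of all cDNAs, or of all cDNAs without the ribosomal RNA locus. For TTP-AA against TTP at 1 h, these gave 2.05 and 1.63 for Actb, 3.34 and 2.67 for Pfn1, and 2.43 and 1.94 for Cfl1. For TTP at 4 h against 1 h, these gave 0.575 and 0.604 for Actb, and 0.557 and 0.586 for Pfn1. For TTP-AA at 1 h against 0 h, they gave 1.49 and 1.48 for Actb, 1.26 and 1.25 for Tmsb4x, and 1.23 and 1.22 for Cfl1. For TTP-AA at 4 h against 1 h, they gave 0.150 and 0.154 for Actb, 0.121 and 0.124 for Pfn1, and 0.289 and 0.298 for Tmsb4x. The 5 others were not called under either setting. With each site counted once, Tmsb4x had 0.566 for TTP-AA against TTP at 1 h and Pfn1 had 0.911 at 0 h. With sites of at least 2 cDNAs, Pfn1 at 4 h against 1 h had 0.945 (TTP) and 0.658 (TTP-AA), and without sites that match another gene 0.871 (TTP). The 3′UTR share of the lists, from 3.12% to 53.6%, sets the gap between these denominators.

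With these denominators in the same order, the number of called genes went from 131 to 1792 and 1672 for TTP-AA against TTP at 1 h, from 284 to 503 and 488 for TTP-AA at 1 h against 0 h, and from 62 to 277 and 261 at 4 h against 1 h. Called members were 2 and 2 (main 4) and 4 and 4 (main 1) in the last pair of comparisons, and 3 and 3 (main 1) for TTP at 4 h against 1 h. Calls higher in the first-named group against calls higher in the second went from 42 and 32 to 59 and 19 for TTP-AA against TTP at 0 h, from 9 and 8 to 10 and 4 at 4 h, and from 66 and 65 to 32 and 94 for TTP at 1 h against 0 h. They went from 24 and 10 to 4 and 47 for TTP at 4 h against 1 h, from 63 and 221 to 468 and 35 for TTP-AA at 1 h against 0 h, and from 60 and 2 to 5 and 272 at 4 h against 1 h.

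With sites of at least 2 cDNAs, called genes for TTP-AA against TTP were 62 at 1 h, 31 at 0 h (main 74) and 10 at 4 h (main 17). Over time they were 47 (main 131) and 14 (main 34) for TTP, and 90 and 19 for TTP-AA. Called members were then 1 for TTP-AA against TTP at 4 h, 0 for TTP at 4 h against 1 h and 0 for TTP-AA at 4 h against 1 h. With each site counted once, called genes were 31 at 0 h, 7 at 4 h and 67 for TTP at 1 h against 0 h, with 1 called member at 0 h and 1 at 4 h. A minimum of 5 cDNAs gave 159 called genes at 0 h and 51 at 4 h, and 0 called members for TTP-AA at 4 h against 1 h. Without a minimum, 54 genes (TTP) and 108 genes (TTP-AA) were called at 4 h against 1 h, with 0 members for TTP-AA. Without sites that match another gene, an alternative chosen after seeing the data, 2 members (Actb and Tmsb4x) were called there, and Pfn1 gained a call at 0 h (odds ratio 1.66, Fisher exact test, adjusted p = 0.0255).

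The share of members' cDNAs in 3′UTRs at 1 h was 80.0% (TTP) and 90.4% (TTP-AA) with each site counted once, and 97.5% and 98.5% with sites of at least 2 cDNAs. TTP sites with a TTP-AA site at the same nucleotide made up 80.9%. AUUUA lay within 10 nt of 4.05% (TTP) and 1.65% (TTP-AA) of members' cDNAs and within 50 nt of 15.5% and 7.01%, beside 6.98% and 2.68% within 20 nt. With each site counted once the TTP-AA value was 3.80%. In the 4 h lists, a count of 0 allows up to 0.331% (TTP) and 0.300% (TTP-AA) of 3′UTR cDNAs by counting error alone. Sites that failed the filter are not covered. Both limit what can be said of Tmsb4x and Cfl1 there.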
